A study of Mus musculus with 22 samples.

Results

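Hepcidin and its partners control how much iron the liver senses, takes up, stores and releases, and 10 of their transcripts were followed here in the livers of adult male mice. The 10 genes were Hamp and Hamp2 (the hepcidins), Trf, Tfrc, Tfr2 and Hfe (uptake and sensing), Slc40a1 (export), Fth1 and Ftl1 (storage) and Bmp6 (an upstream signal), listed on the array in capitals as HAMP, HAMP2, TRF, TFRC, HFE, SLC40A1, FTH1, FTL1 and BMP6. They were chosen by name, as the array probes whose target name equals the gene symbol, with their profile over the 4 diet groups already known, so that their group differences are a description and carry no test. By that name 9 of the 10 genes were found, with 13 of the 45281 probes. Tfr2 was not found under its present symbol and was taken from the 2 probes listed under its older symbol, Trfr2, which gave 15 probes for the 10 genes. A probe was used where it was detected on at least 5 arrays, which 13 of the 15 probes and 9 of the 10 genes met.

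RNA of 22 whole livers was measured, 1 array per mouse, in C57BL/6J males aged 29 weeks. From the age of 5 weeks their mothers ate a western-type diet, written W, or a low-fat control one, written L, were mated after 6 weeks and kept that diet through gestation and lactation. The sons then ate W or L for 24 weeks. Group names give the dam's diet before the son's, as WW (W dam, W son, n = 6), WL (W dam, L son, n = 5), LW (L dam, W son, n = 5) and LL (L dam, L son, n = 6), and the series text states that 2 outlying animals had already been removed. All groups share strain, sex and age, the labels give no litters and no diet composition, and the p-values below treat each mouse as independent.

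Hepcidin is a small peptide hormone made by hepatocytes. It binds ferroportin, the iron exporter encoded by Slc40a1, and causes its breakdown, so that less iron enters the blood from the gut, from macrophages and from the liver itself. Its transcription is known to be raised by iron through BMP6, a ligand made by liver endothelial cells, with HFE and transferrin receptor 2 as sensors, and by inflammation through interleukin 6 and STAT3, and to be lowered when red cell production needs iron. Mice carry a pair of hepcidin genes, Hamp and Hamp2, and in transgenic mice an excess of Hamp lowers body iron while an excess of Hamp2 does not.

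Both genes lie on mouse chromosome 7 and on the same strand, with 1 annotated gene between them in RefSeq. Their promoters are shown as background, and whether their letters bear on the transcript profiles over the diets was not tested. The letters below are the 250 bases before the annotated start in RefSeq GRCm38.p6, minus strand, 5′ to 3′, at chr7:30944030-30944279 for Hamp and chr7:30924182-30924431 for Hamp2. Capitals mark the GGCGCC core of the BMP responsive element known from hepcidin and the STAT element TTCNNNGAA in Hamp, and the letters aligned to them in Hamp2.
Hamp: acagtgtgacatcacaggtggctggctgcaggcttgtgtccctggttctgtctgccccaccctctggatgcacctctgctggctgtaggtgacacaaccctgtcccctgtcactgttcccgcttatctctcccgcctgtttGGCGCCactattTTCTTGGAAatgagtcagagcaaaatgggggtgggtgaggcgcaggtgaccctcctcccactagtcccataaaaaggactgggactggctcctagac
Hamp2: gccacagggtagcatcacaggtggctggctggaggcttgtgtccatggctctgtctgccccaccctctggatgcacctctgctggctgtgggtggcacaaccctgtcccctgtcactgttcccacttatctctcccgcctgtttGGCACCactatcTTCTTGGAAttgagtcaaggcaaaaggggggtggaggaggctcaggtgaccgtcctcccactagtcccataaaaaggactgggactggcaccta

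The 2 windows aligned over 247 bases, of which 227 (91.9%) were identical. GGCGCC began at base -109 of Hamp, counted back from the start. At the aligned place, base -106 of Hamp2, the core carried the substitution G4A, with positions counted from 1 at the 5′ end of the 6 letters in Hamp, and no GGCGCC was found elsewhere in the Hamp2 window. The STAT letters were the same in both genes, at base -97 of Hamp and base -94 of Hamp2. Searched on both strands, GGCGCC occurred in 9.59% and TTCNNNGAA in 7.02% of the 32851 promoter windows in the table. The E-box CACGTG occurred in 6.02% of windows and in neither hepcidin window. The 2 motifs do not overlap in Hamp. A match of letters is not a measured binding site, and its absence says only that these letters are not in this window.

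Before the values, 2 arrays need naming. LL replicate 1 had the lowest mean signal of the 22 arrays (151 intensity units, against up to 276), and WL replicate 5 had the highest score for exocrine pancreas markers, 1.47 on the log2 scale above the LL mean. Arrays lay on 4 slides that the groups fill unevenly, and slide moved many genes (median F 2.03, where 0.816 is expected without slide differences), so values within slides are given for the hepcidins. Of 8 hepatocyte markers 7 were measured and their score, the mean log2 difference from the LL mean, ran from -0.36 to 0.22 over WW, -0.035 to 0.10 over WL, -0.31 to 0.14 over LW and -0.35 to 0.19 over LL. Only Tat of that list did not meet the detection filter. The lowest scores were those of slide 1, at -0.36 and -0.18 (WW replicates 2 and 1), -0.35 (LL replicate 1), -0.31 and -0.21 (LW replicates 2 and 1). Every array of the other slides scored -0.039 or more. Slide 1 held no WL array, so the group ranges of this score cannot be told apart from slide. In whole liver, fewer cells of a type and less RNA per cell cannot be told apart.

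Of the 9 measured genes Hamp2 had the widest differences by the son's diet, and it was higher in western-fed mice on both dam backgrounds. In WW livers its log2 intensity had a lowest value of 11.38, a median of 12.34 and a highest value of 12.84. In WL livers it was 11.26, 11.13, 11.53, 11.01 and 9.81. All but 1 of the 6 WW mice thus lay above every WL mouse. In LW livers the log2 intensity of Hamp2 was 12.61, 11.16, 11.40, 12.68 and 12.77, against a lowest value of 10.91, a median of 11.10 and a highest value of 11.37 in LL livers. Here 4 of the 5 LW mice lay above every LL mouse, while LW replicate 2 fell among them. The LW values formed a high set of 3 mice and a low set of 2, and the 6 LL mice were tightly grouped (SD 0.17).

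Hamp2 was 2.50-fold higher in WW than in WL, with means of 12.27 ± 0.48 (SD, n = 6) and 10.95 ± 0.67 (SD, n = 5) and a log2 difference of 1.32 ± 0.30 (SE). It was 2.04-fold higher in LW than in LL, with means of 12.12 ± 0.78 (SD, n = 5) and 11.09 ± 0.17 (SD, n = 6) and a log2 difference of 1.03 ± 0.30 (SE). Taken by the diet of the son alone, the 11 western-fed mice ran from 11.16 to 12.84 with a median of 12.38, and the 11 low-fat-fed mice from 9.81 to 11.53 with a median of 11.10. Of the 11 western-fed mice 8 exceeded every low-fat-fed mouse, 5 of them WW and 3 of them LW.

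The Hamp2 difference was present on each slide that held both groups. WW minus WL was 1.13 on slide 2, from 2 arrays of each group, and 2.84 on slide 4, where WL replicate 5 was the one WL array. LW minus LL was 0.95 on slide 1, where LL replicate 1 was the one LL array, and 1.78 on slide 3, where LW replicate 5 was the one LW array. With slide as a block in the fit the log2 differences were 1.55 in WW against WL and 1.13 in LW against LL. Without WL replicate 5, the lowest Hamp2 value of all mice, WW minus WL was 1.04, a 2.05-fold difference. The pancreas score of that mouse was 1.47, and it lay between -0.030 and 1.47 over WL, between -0.32 and 0.13 over WW, between -0.15 and 0.24 over LW and between -0.34 and 0.20 over LL. It rests on 3 of 11 listed markers, the other 8 being below the detection filter. Within groups its correlation with Hamp2 over the 22 mice was r = -0.44 (adjusted permutation p = 0.460), and r was -0.063 without LW replicate 2 and WL replicate 5.

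Scores for other cell types are given beside these values, and no marker gene passed in any comparison. Adipose markers, of which 3 of 6 were measured while Adipoq, Plin1 and Retn did not meet the detection filter, scored -0.57 to 1.51 in WW, -0.88 to 1.06 in WL, 0.75 to 1.28 in LW and -0.86 to 0.71 in LL. Erythroid markers, of which 4 of 8 were measured, scored 0.18 to 0.81 in WW, -0.032 to 0.37 in WL, -0.052 to 0.53 in LW and -0.13 to 0.11 in LL. Kupffer cell and macrophage markers, 8 of 10 measured and without Cd5l and Timd4, scored -0.088 to 0.94 in WW, -0.49 to 0.22 in WL, -0.28 to 0.20 in LW and -0.27 to 0.82 in LL. Adipose scores averaged 0.80 in WW, 0.21 in WL, 1.13 in LW and 0 in LL. Erythroid scores averaged 0.40 in WW, 0.12 in WL, 0.29 in LW and 0 in LL. Both averages were thus higher in western-fed mice on both dam backgrounds, as for Hamp2. Kupffer scores averaged higher in WW than in WL (0.33 and -0.14) but lower in LW than in LL (-0.15 and 0). The part of any cell type in the Hamp2 differences was not tested. Within groups the correlation of Hamp2 over the 22 mice was r = 0.0057 with the adipose score, 0.084 with the erythroid score and 0.23 with the Kupffer score, with adjusted permutation p of 0.995, 0.861 and 0.564.

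**Figure D1:**
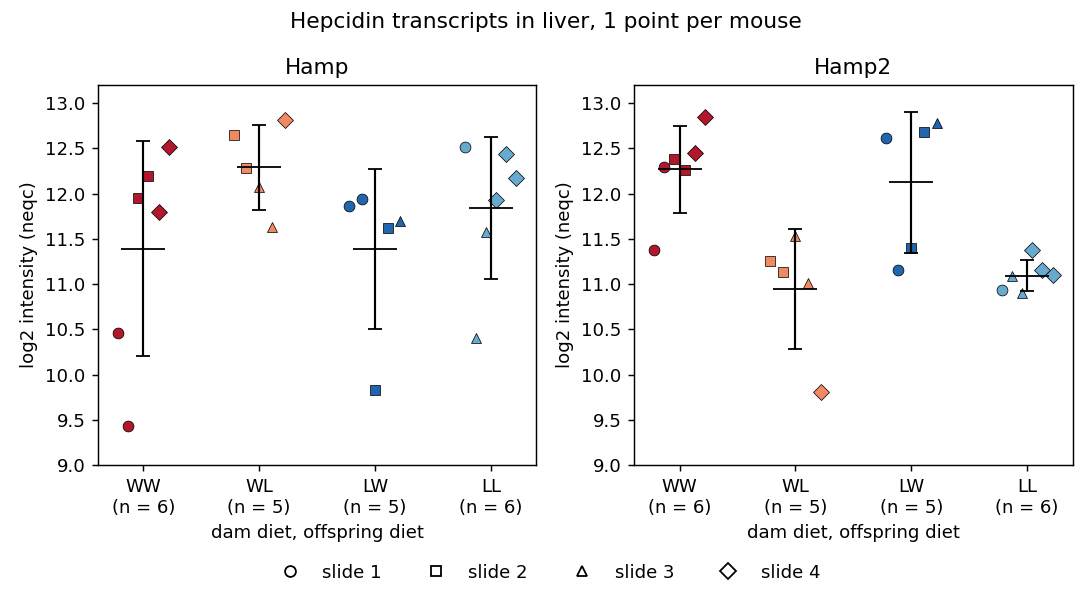
Log2 intensity of Hamp and Hamp2 (vertical axes, normalized with neqc) in each mouse of the groups WW, WL, LW and LL (horizontal axis). Points are mice, shapes are slides, and bars are the group mean with its SD. Hamp2 was high in the western-fed groups WW and LW, and the lowest Hamp values were WW replicate 2 (9.44) and LW replicate 3 (9.83).

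Hamp, the hepcidin with the known effect on body iron, did not share this profile. Its log2 intensity in WW livers had a lowest value of 9.44, a median of 11.88 and a highest value of 12.51. In WL livers it was 12.65, 12.28, 12.07, 11.63 and 12.81. WW mice 1 and 2 lay below every WL mouse, and the other 4 WW mice lay within the WL range. Both low WW mice were on slide 1, which held no WL array, and whose other arrays had Hamp values of 11.86 and 11.94 (LW replicates 1 and 2) and 12.52 (LL replicate 1). In LW livers Hamp was 11.86, 11.94, 9.83, 11.62 and 11.70, against a lowest value of 10.40, a median of 12.05 and a highest value of 12.52 in LL livers. LW replicate 3 alone lay below every LL mouse.

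The group means of Hamp were 11.39 ± 1.19 (SD, n = 6) in WW and 12.29 ± 0.47 (SD, n = 5) in WL, a log2 difference of -0.90 ± 0.47 (SE). They were 11.39 ± 0.88 (SD, n = 5) in LW and 11.84 ± 0.78 (SD, n = 6) in LL, a log2 difference of -0.45 ± 0.47 (SE). The means thus ran opposite to those of Hamp2 on both dam backgrounds, but each Hamp difference was less than 2 SE from 0. Within slides, WW minus WL was -0.40 on slide 2 and -0.66 on slide 4, whereas LW minus LL was -0.62 on slide 1 and 0.71 on slide 3. Without WW replicate 2 the log2 difference in WW against WL was -0.51, and without LW replicate 3 that in LW against LL was -0.06. Hamp varied more within groups than most genes (SD 0.89, larger than for 99.6% of the 9881 genes), as did Hamp2 (SD 0.55, larger than for 97.4%).

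By the diet of the dam, each difference of the hepcidins was less than 1 SE from 0. Hamp2 differed by 0.14 ± 0.30 (SE, log2) in WW against LW and by -0.15 ± 0.30 in WL against LL. Hamp differed by 0.0036 ± 0.47 in WW against LW, which was -1.95 on slide 1 and 1.35 on slide 2, and by 0.45 ± 0.47 in WL against LL. The interaction, that is the effect of the son's diet after W dams minus that after L dams, was 0.29 ± 0.42 for Hamp2 and -0.45 ± 0.66 for Hamp.

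**Figure D2:**
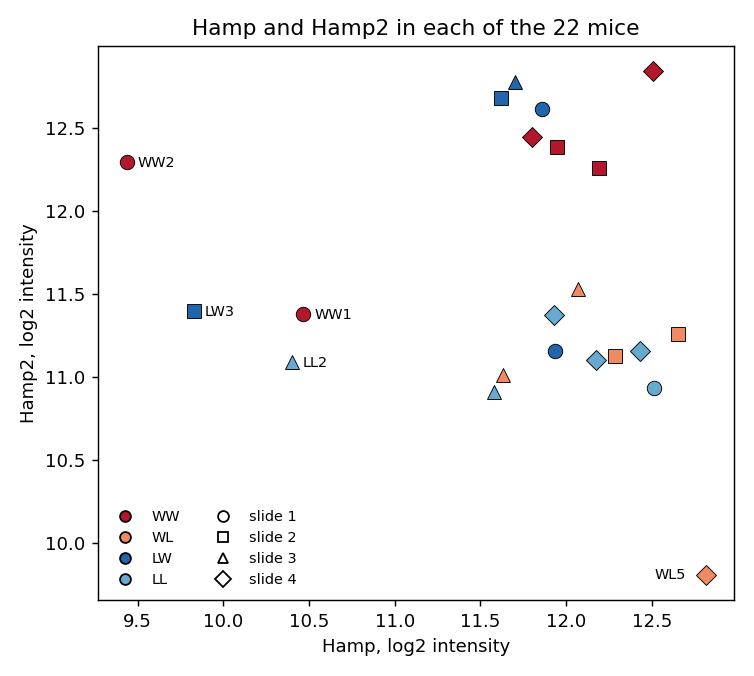
Log2 intensity of Hamp (horizontal) and Hamp2 (vertical) in each of the 22 mice, with groups by colour and slides by shape. Of the 11 western-fed mice (WW and LW) 8 lie above every low-fat-fed mouse in Hamp2, WW replicate 2 combines the lowest Hamp (9.44) with high Hamp2 (12.30), and WL replicate 5 combines the highest Hamp (12.81) with the lowest Hamp2 (9.81).

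From mouse to mouse within the groups, Hamp and Hamp2 showed no relation that passed a test. After group means were removed, Pearson's r over the 22 mice was 0.23 (permutation within groups, two-sided, p = 0.335) and Spearman's rho was 0.082 (permutation p = 0.707). Without WW replicate 2 and LW replicate 3, the mice farthest from the median of Hamp, r was 0.14, and with slide means removed as well it was 0.31. Of the 36 pairs among the 9 measured genes none passed a Benjamini-Hochberg adjusted permutation p of 0.05, the lowest being 0.124, for Hamp2 with Tfrc (r = -0.44) and for Tfrc with Ftl1 (r = -0.65, or -0.35 without WW replicate 1 and LL replicate 1), and the Hamp and Hamp2 pair had an adjusted p of 0.463. Each gene has 1 probe, whose letters were not used here, so how much signal the probes of these similar transcripts share was not tested.

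The genes most like Hamp2 in their profile over the 22 arrays were Rpa2 (a subunit of the single-strand DNA binding protein RPA, r = 0.85), Serpina6 (corticosteroid-binding globulin of the plasma, 0.84), Adora1 (an adenosine receptor, 0.83), Mgst3 (a microsomal glutathione transferase, 0.79) and Snx19 (a sorting nexin, 0.78). With group means removed r was 0.74 for Rpa2, 0.81 for Serpina6, 0.67 for Adora1, 0.59 for Mgst3 and 0.78 for Snx19. Those most like Hamp were Maf1 (a repressor of RNA polymerase III, r = 0.75), Id3 (an inhibitor of DNA binding and a known BMP target, 0.74), Serpina1a (an alpha-1 antitrypsin, 0.74), Itih2 (an inter-alpha-trypsin inhibitor chain, 0.71) and Zbtb22 (a zinc finger protein, 0.70). With group means removed r was between 0.66 and 0.71 for these. The values are Pearson's r over arrays that share slides and normalization, and are the highest among 9881 genes by selection.

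Transferrin, the plasma carrier of iron that hepatocytes secrete, varied little. Trf log2 intensity in WW livers had a lowest value of 15.01, a median of 15.12 and a highest value of 15.21, and in WL livers it was 15.15, 15.15, 15.21, 15.17 and 15.12. It was 14.96, 15.03, 15.06, 15.07 and 15.15 in LW livers, against 15.04, 15.14 and 15.40 as the lowest, median and highest values in LL livers. The groups overlapped, and the log2 difference was -0.03 ± 0.09 (SE) in WW against WL and -0.12 ± 0.09 in LW against LL. The Trf probe lay 0.37 log2 units below the brightest value of any gene, so its range upward was narrow.

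The receptor that takes up transferrin, Tfrc, varied widely between mice, and its groups overlapped. In WW livers the brighter of its 2 probes had a lowest value of 6.76, a median of 7.16 and a highest value of 8.24, and in WL livers its values were 6.67, 6.62, 7.11, 7.44 and 7.52. In LW livers they were 7.38, 7.35, 7.84, 7.15 and 7.24, against a lowest value of 6.35, a median of 7.12 and a highest value of 8.44 in LL livers. The 3 highest values of all, WW replicates 1 and 2 and LL replicate 1, were on slide 1, whose arrays deviated from their group means by 0.53 on average. The log2 difference was 0.35 ± 0.31 (SE) in WW against WL and 0.10 ± 0.31 in LW against LL, and the other probe gave 0.22 ± 0.24 and -0.10 ± 0.24, so the sign in LW against LL depended on the probe. Within slides, WW minus WL was 0.25 on slide 2 and -0.36 on slide 4, and LW minus LL was -1.08 on slide 1, where LL replicate 1 was the one LL array, and -0.13 on slide 3. Without LL replicate 1, LW minus LL was 0.33, and with slide as a block it was -0.05, so no direction can be given for Tfrc there.

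The iron sensors Tfr2 and Hfe, which feed into hepcidin transcription, differed little. Tfr2 (brighter probe) in WW livers had a lowest value of 10.95, a median of 11.05 and a highest value of 11.30, and in WL livers it was 11.38, 11.10, 11.20, 10.93 and 11.20. In LW livers it was 11.28, 11.31, 11.09, 11.25 and 11.02, against 10.88, 11.09 and 11.89 as the lowest, median and highest values in LL livers. The groups overlapped, with log2 differences of -0.08 ± 0.14 (SE) in WW against WL and 0.00077 ± 0.14 in LW against LL. Hfe gave opposite signs with its 2 probes. The brighter one had a lowest value of 7.54, a median of 7.97 and a highest value of 8.72 in WW livers, and 8.26, 8.03, 8.29, 8.47 and 8.26 in WL livers. It was 7.74, 8.09, 8.15, 8.26 and 8.59 in LW livers, against 7.44, 8.34 and 8.83 as the lowest, median and highest values in LL livers. It had log2 differences of -0.17 ± 0.22 in WW against WL and -0.13 ± 0.22 in LW against LL, and the dimmer one 0.38 ± 0.19 and 0.32 ± 0.19. No direction can thus be given for Hfe.

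Ferroportin, the target of hepcidin, had overlapping transcript levels in all groups. Slc40a1 log2 intensity in WW livers had a lowest value of 11.72, a median of 12.05 and a highest value of 12.33, and in WL livers it was 12.23, 12.10, 12.35, 12.35 and 11.44. In LW livers it was 11.88, 12.24, 12.04, 12.07 and 11.90, against 11.72, 12.20 and 12.49 as the lowest, median and highest values in LL livers. WL replicate 5 was the lowest of all mice. The log2 difference was -0.04 ± 0.15 (SE) in WW against WL, -0.20 without WL replicate 5, and -0.14 ± 0.15 in LW against LL. Hepcidin acts on the ferroportin protein, which arrays do not measure.

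The ferritin subunits, which together form the shell that stores iron, overlapped between groups. Fth1, the heavy subunit with ferroxidase activity, had group means of 15.02 ± 0.088 (SD, n = 6) in WW, 14.99 ± 0.11 (SD, n = 5) in WL, 14.91 ± 0.052 (SD, n = 5) in LW and 14.91 ± 0.16 (SD, n = 6) in LL. This Fth1 probe lay 0.55 log2 units below the brightest value of any gene, so its range upward was narrow, as for Trf. Its second, dimmer probe gave differences of 0.07 ± 0.12 (SE) in WW against WL and 0.03 ± 0.12 in LW against LL. Ftl1, the light subunit, had a lowest value of 11.32, a median of 12.07 and a highest value of 12.11 in WW livers, and 11.71, 12.04, 11.54, 11.53 and 11.57 in WL livers. It was 11.73, 11.55, 11.89, 11.83 and 11.90 in LW livers, against 10.98, 11.81 and 12.08 as the lowest, median and highest values in LL livers. Of the 6 WW mice 4 exceeded every WL mouse and 1 lay below all of them, and the log2 difference of 0.23 ± 0.17 (SE) was within the spread. Ferritin and Tfrc are known to be controlled largely through iron regulatory proteins that act on their messenger RNA, ferritin mainly in translation.

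Bmp6 was not well above background on any of the 22 arrays, nor was the second Ftl1 probe. The log2 intensity of Bmp6 ran from 4.30 to 4.54 in WW, 4.29 to 4.40 in WL, 4.25 to 4.42 in LW and 4.29 to 4.51 in LL, values at the floor that have no order. A diet difference in this ligand was not detectable at this signal. Of 8 liver endothelial markers 7 were measured, with scores of -0.11 to 0.022 in WW, -0.21 to 0.034 in WL, -0.15 to -0.026 in LW and -0.12 to 0.20 in LL.

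**Figure D3:**
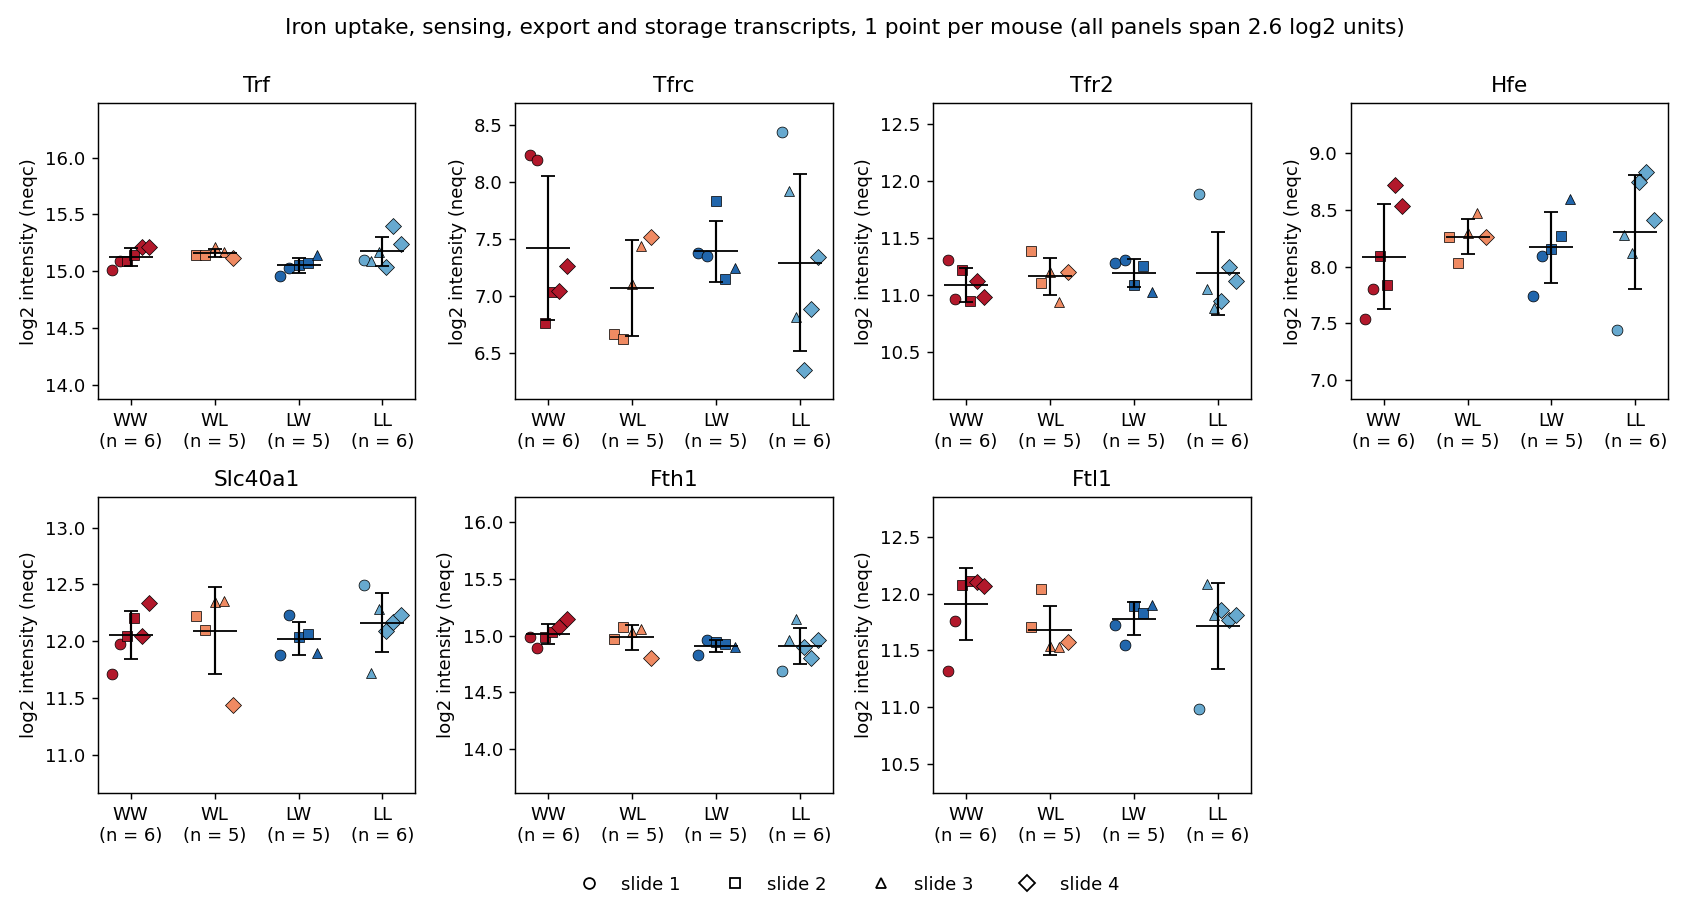
Log2 intensity of the 7 other measured genes (vertical axes, each spanning 2.6 log2 units) in each mouse of WW, WL, LW and LL, with slides by shape and bars for the group mean and SD. Trf and Fth1 were narrow, Tfrc was spread, and LL replicate 1 stood apart in Tfrc (8.44), Tfr2 (11.89) and Ftl1 (10.98).

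Over the 9 measured genes the median log2 difference was -0.033 in WW against WL, where the median of all 9881 genes was -0.0050, and 0.00077 in LW against LL, where it was 0.010. It was 0.033 in WW against LW and -0.040 in WL against LL, beside medians of -0.0090 and 0.0071 over all genes. In the fit across all genes (limma, Benjamini-Hochberg adjusted p under 0.05) 1 of the 9, Hamp2, passed in WW against WL, where 0.476% of all genes passed, with an adjusted p of 0.0449. That call was kept in 10 of the 22 fits that left out 1 mouse (limma adjusted p 0.0158 to 0.181, the highest without WL replicate 5), and it was lost with the deposited values (adjusted p = 0.0551), with no detection filter (0.108) and with the replicate number as a block (0.0568), while the log2 difference stayed at 1.04 or more. In LW against LL 0 of the 9 passed, where 0.243% of all genes did, and 1 of the 9, Hamp2, was under an unadjusted p of 0.05, as were 15.4% of all genes. By the diet of the dam and in the interaction 0 of the 9 and 0% of all genes passed, while an unadjusted p under 0.05 was held by 10% of all genes in WW against LW, 4.74% in WL against LL, 8% in the interaction and 13.8% in WW against WL. None of the 9 had groups without overlap, which 1.82% of all genes had in WW against WL, 2.34% in LW against LL, 0.638% in WW against LW and 0.374% in WL against LL. These contrasts were in view when the genes were chosen, so nothing is read from the counts. For the same reason the adjusted p of Hamp2 is not a test of its difference.

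**Figure D4:**
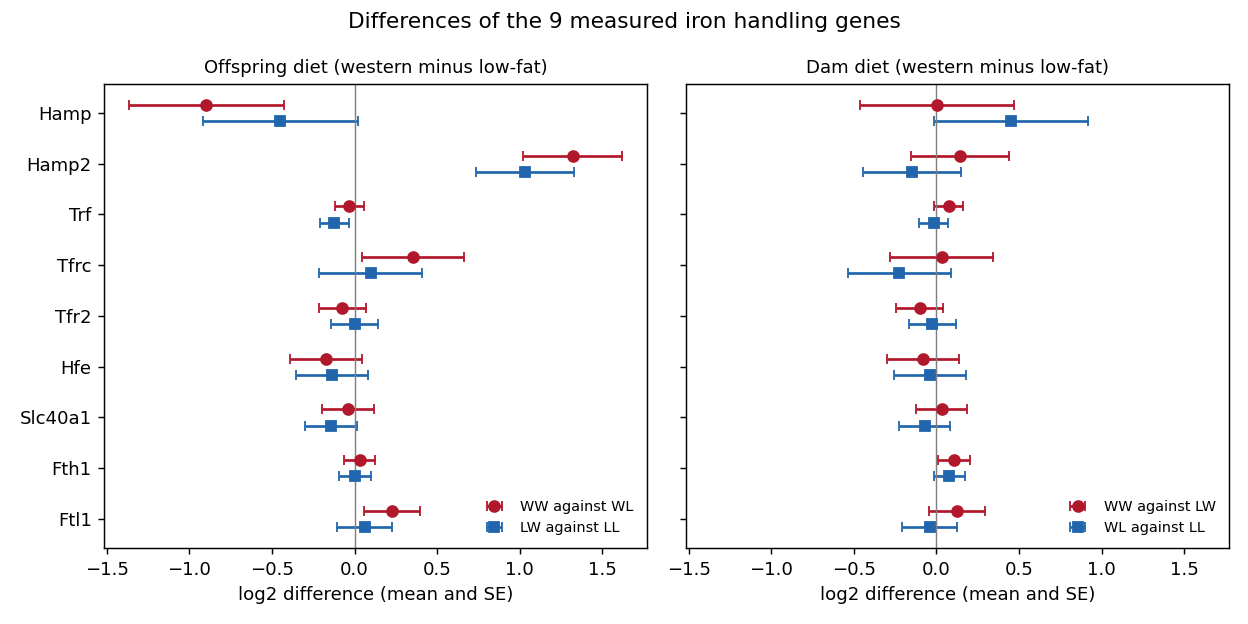
Log2 differences (horizontal, mean and SE) of the 9 measured genes, western minus low-fat, by the son's diet (left: WW against WL, LW against LL) and by the dam's diet (right: WW against LW, WL against LL). Each gene is shown by its brightest probe. Hamp2 stood at 1.32 and 1.03 by the son's diet and Hamp at -0.90 and -0.45, whereas the other 7 genes lay between -0.17 and 0.35 there. The dimmer Hfe probe, not shown, gave 0.38 and 0.32.

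The wider iron pathway was followed with 82 further genes in 6 lists, of which 65 were measured. None passed over all genes in limma in WW against WL, LW against LL, WW against LW, WL against LL or the interaction. In simulated data the fit recovered 37.3% of changes of 0.5 log2 in WW against WL, so a gene that did not pass may still differ. At an unadjusted p under 0.05 there were 4 (6.15%) in WW against WL, beside 13.8% of all genes, and 11 (16.9%) in LW against LL, beside 15.4% of all genes. By the diet of the dam 3 (4.62%) did so in WW against LW and 2 (3.08%) in WL against LL.

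In the list of hepcidin control by BMP and SMAD, 13 of 16 measured genes had lower means in WW than in WL. Their median log2 difference was -0.17, beside -0.0050 over all genes. In LW against LL 14 of 16 were lower (median -0.20, beside 0.010 over all genes). The list mixes activators, inhibitors such as Tmprss6 and targets such as Id3, so the count gives no direction for hepcidin control. Id2 averaged 9.26 ± 0.58 (SD, n = 6) in WW and 10.16 ± 0.41 (SD, n = 5) in WL, with a log2 difference of -0.90 ± 0.34 (SE, limma adjusted p = 0.234), and differed by -0.61 ± 0.34 in LW against LL (adjusted p = 0.393). Id3 differed by -0.43 ± 0.21 (adjusted p = 0.365) in WW against WL and by -0.46 ± 0.21 (adjusted p = 0.291) in LW against LL. Id1, the target most often read for this pathway, differed by -0.23 ± 0.28 and 0.05 ± 0.28. The signal transducer Smad1 differed by -0.22 ± 0.14 and -0.36 ± 0.14 (adjusted p = 0.524 and 0.226). It lay near the floor, with group means from 4.81 in LW to 5.18 in LL. It was detected on 4 WW, 4 WL, 2 LW and 5 LL arrays. Smad7 and the ligand Bmp2 did not meet the detection filter.

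In the list of control by interleukin 6 and STAT3, 6 of 8 had lower means in WW than in WL (median -0.069). In LW against LL 5 of 8 were lower (median -0.070). That list too mixes activators with an inhibitor, Socs3, so its count gives no direction. Il6 itself did not meet the detection filter, and Il1b differed by -0.77 ± 0.27 in LW against LL (adjusted p = 0.181). All 16 acute phase genes, which the liver makes in inflammation, were measured and none passed. Their median was -0.061 in WW against WL, with 10 of 16 lower, and -0.081 in LW against LL, with 11 of 16 lower. The mean ran the other way in WW against WL, with an average score of 0.17 in WW and 0.036 in WL. Lcn2, a siderophore-binding protein that withholds iron from bacteria, averaged 11.19 in WW and 9.37 in WL (log2 difference 1.82 ± 0.67, limma adjusted p = 0.224). The acute phase protein Saa1 averaged 12.97 in WW and 12.17 in WL (0.80 ± 0.44, adjusted p = 0.433). Neither was higher in LW than in LL, with Lcn2 at 9.82 and 9.97 and Saa1 at 12.19 and 12.24. Of the genes with lower means, Crp averaged 12.42 in WW and 12.84 in WL, and 12.16 in LW and 12.72 in LL. The acute phase score of the mice ran from -0.16 to 0.62 in WW, -0.42 to 0.34 in WL, -0.71 to 0.15 in LW and -0.38 to 0.34 in LL. Within groups, none of the 16 relations of Hamp or Hamp2 with the acute phase score or a cell type score passed, the lowest adjusted permutation p being 0.320.

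Genes of iron uptake and mobilisation were mixed, with 7 of 13 higher in WW than in WL and 8 of 13 in LW than in LL. Slc25a37, mitoferrin 1, which carries iron into mitochondria and is best known from red cell precursors, averaged 7.88 ± 0.34 (SD, n = 5) in LW and 7.19 ± 0.26 (SD, n = 6) in LL, with a log2 difference of 0.69 ± 0.16 (SE, limma adjusted p = 0.0689), and differed by 0.18 ± 0.16 in WW against WL (adjusted p = 0.661). The erythroid score averaged 0.29 ± 0.23 (SD, n = 5) in LW and 0 with an SD of 0.082 (n = 6) in LL, and its part in this was not tested. Slc25a37 passed in LW against LL without LL replicate 1, LW replicate 2 or WL replicate 5. In these fits 87, 56 and 72 of all genes passed, beside 24 in the main fit.

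In heme handling, 7 of 9 genes of scavenging and breakdown had higher means in WW than in WL and 6 of 9 in LW than in LL. Blvrb, a biliverdin reductase, averaged 12.86 ± 0.16 (SD, n = 6) in WW and 12.33 ± 0.15 (SD, n = 5) in WL. Every WW mouse (12.67 or more) lay above every WL mouse (12.55 or less), as for 1.82% of all genes in either direction. Blvrb was named for its small p in these data, so nothing is read from this. Its log2 difference was 0.53 ± 0.13 (SE, limma adjusted p = 0.0542) in WW against WL, and 0.27 ± 0.13 (adjusted p = 0.298) in LW against LL. With slide as a fixed block Blvrb passed in WW against WL with a log2 difference of 0.44. In that setting 316 of all genes passed, beside 47 in the main fit. In heme synthesis and iron-sulfur clusters 8 of 13 had higher means in WW than in WL and 8 of 13 in LW than in LL, with Fdxr, the reductase that supplies electrons for cluster assembly, at 0.57 ± 0.15 in LW against LL (adjusted p = 0.0893). The 6 iron regulatory and hypoxia genes had medians of -0.034 in WW against WL and -0.088 in LW against LL.

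**Figure D5:**
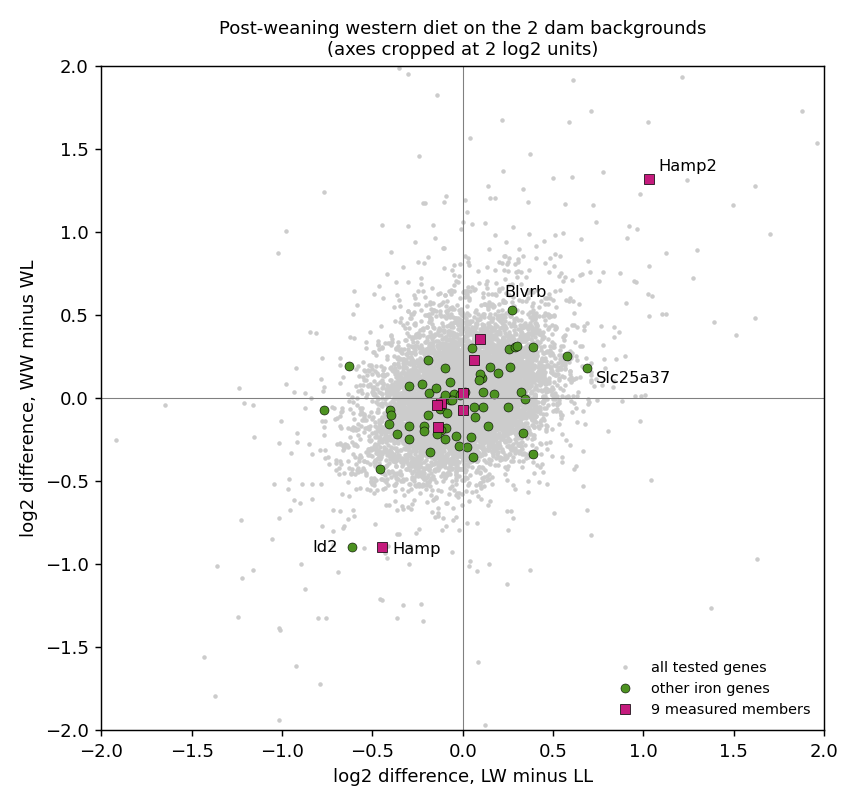
Log2 difference by the son's diet after L dams (LW minus LL, horizontal) and after W dams (WW minus WL, vertical) for all 9881 tested genes (grey), 65 other iron genes (green circles) and the 9 measured members (pink squares), with axes cropped at 2 log2 units. Hamp2 lies at the upper right (1.03 and 1.32), Hamp at the lower left (-0.45 and -0.90), and the other iron genes within 1 log2 unit of 0.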

How the data were processed

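The deposited table gives, per the file headers, an intensity and a detection p-value for each of 45281 Illumina probes on each array. Between 33.2% and 41.2% of intensities per array were below 0, so a background had been subtracted. The authors' series matrix holds further deposited intensity values, on a linear scale with column medians of 245; how they were normalized or centred is not given in the sources used here. The 22 matrix columns each matched their own array best and served as an alternative.

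The function neqc (limma 3.58.1 in R 4.3.3, offset 16) corrected and quantile-normalized the intensities to a log2 scale. Probes with a detection p under 0.05 on at least 5 arrays were kept (16268). Names were matched to RefSeq symbols, and the brightest named probe per gene gave 9881 genes. A single limma model (lmFit, eBayes) covered the 4 groups, with Benjamini-Hochberg adjustment over all genes, and functions were tested on simulated data. Depth on arrays is signal over background, arrays detected 13285 to 15105 probes, and their number limits precision. Correlations used 100000 permutations within groups. Promoters were aligned with Biopython 1.88.

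The members and lists were chosen with earlier results of these data known. Named genes were all members, other iron genes among the 3 smallest p of their list in each comparison, and the 5 genes most like each hepcidin; those printed are a subset, and Id1, Saa1, Smad7, Bmp2, Il6 and undetected cell type markers were added outside this rule. Alternatives were the deposited values, an offset of 50, other detection filters (none, or p under 0.01), the mean of a gene's probes, slide as a fixed or random block, the replicate number as a block, and leaving out mice. The labels state no pairing, so the replicate numbers were not taken to pair mice in the main fit. Same-numbered mice of different groups had deviations correlated between -0.18 and 0.45, over 0.1 in 16 of 31 pairs. Some same-numbered mice shared a slide, such as LW, WW and LL replicate 1 on slide 1, so number and slide are partly confounded. Whether a number marks a shared batch beyond the slide was not tested.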

Additional observations from a re-analysis of the deposited data

Results flagged for a closer look

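In 52 groups of 5 or 6 mice (13 probes by 4 groups), 5 held 1 mouse far from the rest by Dixon's criterion, which chance flags in about 1 in 20 groups. For Hamp, LW replicate 3 was at 9.83, where the other LW mice were at 11.62 to 11.94. LL replicate 1, the array with the lowest mean signal, was apart in 3 cases. Its Tfr2 was at 10.25 with one probe, where the other LL mice were at 9.31 to 9.50, and at 11.89 with the other, where they were at 10.88 to 11.24. Its Ftl1 was at 10.98, where the others were at 11.77 to 12.08. For Slc40a1, WL replicate 5 was at 11.44, where the other WL mice were at 12.10 to 12.35.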

How the results depend on the processing

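The median log2 difference of the 9 measured genes moved by less than its spread between mice (SD 0.093) in 157 of 163 alternatives. It moved to -0.11 within slide 1 in LW against LL, 0.31 within slide 4 in WW against WL, 0.10 within slide 3 and 0.080 without LL1 and WL5 in WL against LL, and -0.10 within slide 1 in WW against LW. With 1 mouse left out it ran from -0.018 to 0.12 in the interaction. Single members moved by less than their spread between mice in 1438 of 1467 alternatives, and 114 values changed sign. That criterion is loose, since the spread of Hamp was 0.89 (SD) beside an SE of 0.47 for its group differences.

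The number of genes called in LW against LL (24) was 0 with the deposited values, 7 with no detection filter, 15 with the mean of probes, 5 with slide as a fixed block, 67 with the replicate number as a block and 205 without LL1 and WL5, and 4 (without LW replicate 5) to 87 (without LL replicate 1) with 1 mouse left out. In WW against WL (47) it was 125 with the deposited values, 2 with no detection filter, 316 and 122 with slide as a fixed and a random block, 122 with the replicate block and 5 without LL1 and WL5, and 3 (without WL replicate 5) to 81 (without WL replicate 2) with 1 mouse left out. In WL against LL (0) the replicate block gave 2 and leaving out 1 mouse 0 to 1. In WW against LW (0) slide as a fixed block gave 4, the replicate block 1, and leaving out 1 mouse 0 to 1, as in the interaction. The causes were not tested.

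Of the other iron genes, none of which passed in the main fit, Slc25a37 (LW against LL) was the 1 called with the replicate block. Without LL1 and WL5 it was 1 of 2, with Il22ra1, and leaving out 1 mouse gave 0 to 1. Il22ra1 lay near the floor and was detected on 0 WW, 1 WL, 3 LW and 1 LL arrays. It met the filter of at least 5 arrays only with those of LW, where its mean was highest, so nothing is read from its call. In WW against WL Blvrb was the 1 called with the deposited values, an offset of 50, a detection p under 0.01, slide as a fixed or random block and the replicate block, and leaving out 1 mouse gave 0 to 1. Of the 22 arrays 10 correlated best, outside their own group, with one of their own number. Genes near background have compressed differences.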
